A study of Homo sapiens with 18 samples.

Results

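The comparison described here is that of GATA1s with full-length GATA1 in growing erythroid progenitor cells. It uses the 9 expansion libraries of the 18 in the series, chosen by their labels: 3 libraries of a full-length clone and 6 libraries of 2 GATA1s clones. RNA was measured by stranded poly(A) sequencing of HUDEP1, a human line of immortalised erythroid progenitors. The remaining 9 libraries come from the same clones after transfer to differentiation medium and enter 1 alternative fit only.

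The group called FL below carries the genotype GATA1FL, and the other groups are the clones GATA1s_1D5 and GATA1s_1KI9, called 1D5 and 1KI9. All 9 libraries share the growth condition: SFEM II medium with erythropoietin at 3 U/mL, human stem cell factor at 50 ng/mL, dexamethasone at 1 µM and doxycycline at 1 µg/mL. FL is 1 clone, so the effect of the genotype and the effect of being that clone cannot be told apart. Each clone has 3 replicates, and the labels do not say whether they were separate cultures. The p-values therefore measure the spread between libraries, which may be technical.

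GATA1 is the transcription factor that directs red cell, megakaryocyte, mast cell and eosinophil development by binding GATA motifs through its zinc fingers. GATA1s starts at a later methionine, lacks the N-terminal domain and keeps the zinc fingers. Mutations that leave only GATA1s are known from an inherited anaemia and from the megakaryoblastic leukaemia of Down syndrome.

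The libraries fitted their label as an erythroid line. KLF1, an erythroid transcription factor, stood at 179, 168 and 143 TPM (a share of all transcripts, corrected for gene length) in FL replicates 1 to 3, 175, 202 and 165 in the 1D5 libraries and 134, 137 and 138 in those of 1KI9. The transferrin receptor TFRC and the glycophorins GYPB and GYPC were all above 90 TPM in each of the 9 libraries. Beta globin HBB was at most 15.4 TPM while gamma globin HBG2 was at least 19297 TPM. Of 17 erythroid markers tested, none was called higher in both clones, and HBA1, HBA2 and HEMGN were called lower, with median log2 differences of -0.35 in 1D5 and -0.73 in 1KI9 over the list. TSPO2, a late erythroid gene, was at 0 in all 9.

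Libraries of a group correlated with r between 0.991 and 0.996 over the genes tested, and listed values summed to between 943734 and 950736 per library. TPM keeps no read depth, so the depth is unknown. FL replicate 1 stood apart from its group: globins took 10.6% of its total against 5.55% and 5.73% in FL replicates 2 and 3. Markers of other blood cells differed from type to type. The summed level of 8 monocyte and macrophage markers lay at 7.66 to 37.6 TPM in FL, 34.2 to 49.5 in 1D5 and 187 to 240.1 in 1KI9. The FL and 1D5 sums overlapped. Of the 6 tested, 3 were called higher in both clones (50%, beside 13.2% over all genes), CD68, TYROBP and AIF1. LYZ, FCGR1A and ITGAX were not called in both. LYZ was at 3.10, 31.32 and 10.88 TPM in FL, 7.56, 7.64 and 4.09 in 1D5 and 29.85, 38.02 and 37.15 in 1KI9. CD68 alone, at 189, 130 and 136 TPM in 1KI9, made up most of the sum there. CSF1R, a defining marker of these cells, was at most 0.34 TPM in any library. Megakaryocyte markers summed to 12.8 to 24.1, 28.1 to 30.3 and 37.8 to 44.6 TPM, with 4 of 5 tested called higher (GP6, ITGA2B, ITGB3 and TUBB1, the last not without FL replicate 2 or 3) and the defining markers GP9 and VWF at 0. Eosinophil, basophil and mast cell markers summed to 540.0 to 878, 81.5 to 104 and 136 to 169.5 TPM, with TPSB2, MS4A3 and FCER1A of 7 tested higher, PRG2 lower and IL5RA at 0. That sum followed PRG2, which alone was at 536, 614 and 873 TPM in FL. TPSB2 went the other way, from 2.01, 3.48 and 2.65 TPM in FL to 80.7, 65.2 and 61.15 in 1KI9. The 5 neutrophil markers never summed above 4.24 TPM, AZU1 was the 1 tested and was higher, and LTF was at 0. Stem and multipotent progenitor markers summed to 5.07 to 5.64, 15.7 to 19.4 and 36.5 to 42.1 TPM, with CRHBP of 2 tested higher and AVP at 0. CRHBP alone, at 38.4, 31.3 and 32.2 TPM in 1KI9, made up most of the sum there. COL1A1 was the single fibroblast marker tested and was higher, at no more than 1.48 TPM, while COL1A2, COL3A1 and PECAM1 were at 0. No lymphocyte marker passed the filter, and CD3D, CD3G and CD79A were at 0. GP6, ITGA2B, ITGB3, TYROBP, AIF1, MS4A3, FCER1A, AZU1 and COL1A1 were under 1 TPM in every FL library. They passed the filter only through GATA1s libraries and could be called in no direction but higher. In bulk RNA, more cells of a type and more RNA of its genes per cell cannot be told apart. Some of these marker values moved with several gene groups below, and their part in those results was not tested.

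The first question is how many genes differed from FL in both clones. A gene was called in both when 1D5 and 1KI9 each passed an adjusted p of 0.05 against FL with the same sign (limma on log2(TPM + 1), Benjamini-Hochberg adjustment over 10572 genes). This held for 2062 genes, 19.5% of those tested, of which 1394 (13.2%) were higher and 668 (6.32%) lower. A change of at least 2-fold in each clone was found for 258 genes (2.44%) upward and 73 (0.691%) downward. In 1982 of the called genes (18.7% of those tested) the 6 GATA1s libraries did not overlap the 3 FL libraries. Of the genes called higher 226 were under 1 TPM in every FL library, and of those called lower 48 were under 1 TPM in every GATA1s library. Such genes pass the filter only through the side where they are high. Without regard to any test, 1984 genes (18.8%) had all 6 GATA1s libraries above FL and 1095 (10.4%) had all 6 below. The contrasts share the FL libraries, so a count in both is no sum of independent evidence.

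The clones differed in reach. 1D5 alone gave 2373 calls (22.4%), 1479 higher (14%) and 894 lower (8.46%). 1KI9 gave 5610 calls (53.1%), 3903 higher (36.9%) and 1707 lower (16.1%). The genes called in both made up 86.9% of the 1D5 calls and 36.8% of the 1KI9 calls. The first principal component held 72.3% of the variance and placed the FL libraries between -40.1 and -32.8, 1D5 between -1.81 and 3.59 and 1KI9 between 34.4 and 38.9. The median log2 difference over all genes tested was 0.00 for 1D5 and 0.12 for 1KI9. Scaling each library by the median of its ratios moved the 1KI9 median by -0.14, to -0.02. That scaling gave 1435 genes higher and 1179 lower, so the share of higher calls was 54.9% in place of 67.6%. Medians of gene lists below are therefore read beside 0.00 and 0.12. The lower count was the less stable: it lay between 359 (without FL replicate 3) and 871 (without FL replicate 1). It was 415 without FL replicate 2, 443 without 1D5 replicate 2 and 417 without 1D5 replicate 3. The counts past 2-fold depended on the pseudocount: 497 higher at 0.1 and 88 higher and 24 lower at 5. The lower of them numbered 44 without FL replicate 1 and 36 without FL replicate 2, where 34 of the 73 genes, all under 1 TPM in every GATA1s library, no longer passed the filter.

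GATA1 itself, whose gene lies on the X chromosome, stood at 152, 168 and 143 TPM in FL, 637, 680.2 and 634 in 1D5 and 614, 629 and 662 in 1KI9. All GATA1s libraries were above every FL library, with log2 differences of 2.07 and 2.04 (SE 0.07, adjusted p 3.36e-09 and 1.18e-09). A gene total cannot tell the short from the long form, so it does not check the labels of the clones. The clones did not differ by the test (log2 1KI9 minus 1D5 -0.04, adjusted p 0.739).

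**Figure D1:**
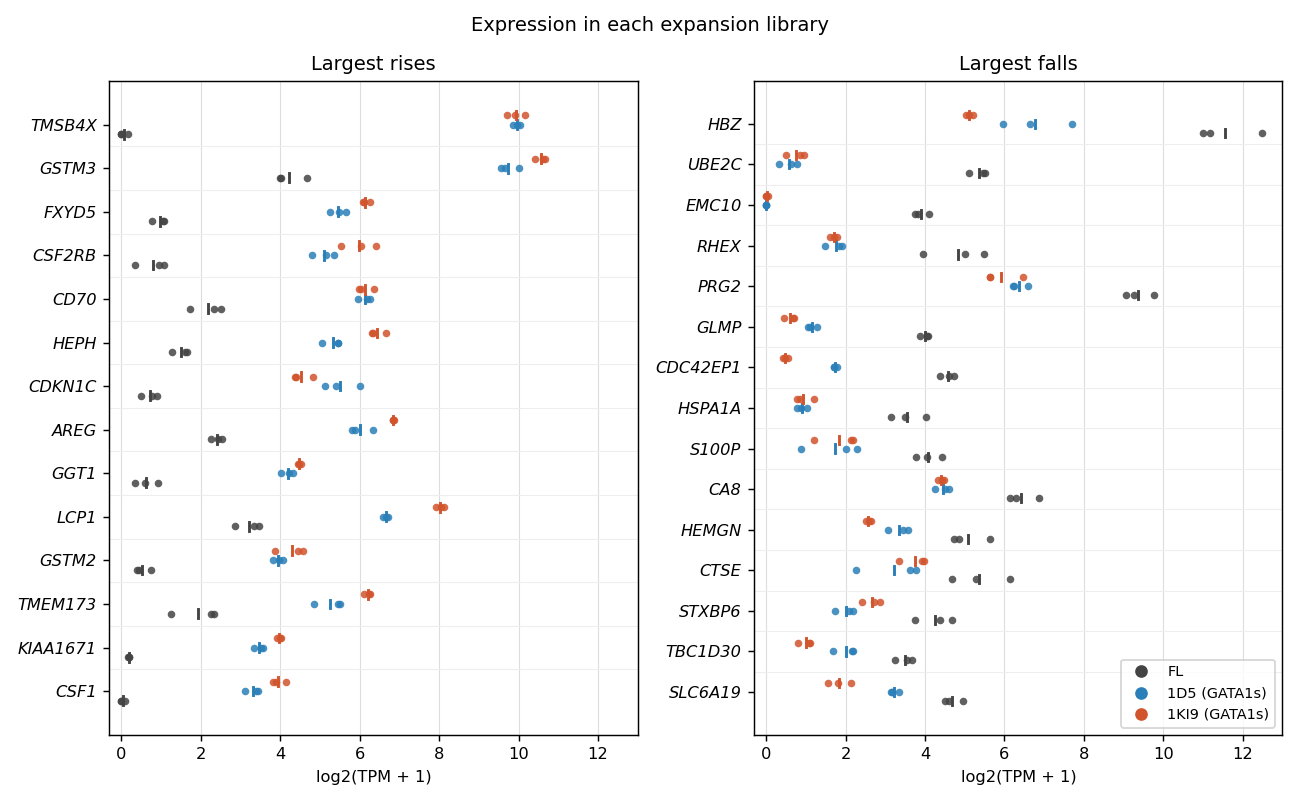
Level of 14 of the 15 largest rises (left) and of the 15 largest falls (right) called in both clones, on a log2(TPM + 1) axis; each point is 1 library, 3 per group, and the tick is the group mean on that axis. Only genes whose 6 GATA1s libraries lie on 1 side of the 3 FL libraries entered the ranking, and TMSB4X moves farthest, from at most 0.13 TPM in FL.

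CSF1, AREG, CD70 and CSF2RB, ligands or receptors, were among the 15 largest rises. The 15 largest rises and falls were ranked only among genes whose groups did not overlap, so that trait is no further result in them. CSF1, the growth factor of macrophages, was at 0, 0 and 0.06 TPM in FL, 9.93, 7.64 and 9.47 in 1D5 and 16.6, 13.1 and 13.8 in 1KI9. It was close to 0 in FL and above 7 TPM in all 6 GATA1s libraries. AREG, a ligand of the EGF receptor, was at 3.75, 4.83 and 4.42 TPM in FL, 55.0, 57.7 and 79.8 in 1D5 and 113, 115 and 113 in 1KI9. CD70, a surface ligand of the TNF family that binds CD27, was at 4.05, 4.70 and 2.30 TPM in FL, 75.0, 72.3 and 61.7 in 1D5 and 80.8, 64.8 and 62.2 in 1KI9. Its log2 differences were 3.95 and 3.94 (SE 0.17, adjusted p 2.2e-08 and 9.12e-09), and the clones did not differ by the test (adjusted p 0.966). CSF2RB, the shared beta chain of the receptors for GM-CSF, interleukin 3 and interleukin 5, was at 0.27, 1.12 and 0.93 TPM in FL, 34.4, 40.0 and 26.9 in 1D5 and 45.2, 64.8 and 83.6 in 1KI9.

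HEPH, TMEM173 and GGT1 were also among the 15 largest rises. HEPH, a copper-dependent ferroxidase that works with iron export, was at 1.40, 2.02 and 2.12 TPM in FL, 43.1, 32.1 and 42.8 in 1D5 and 100.3, 78.2 and 79.1 in 1KI9. TMEM173, which encodes the DNA-sensing adaptor STING, was at 1.36, 4.03 and 3.77 TPM in FL, 44.1, 42.5 and 27.9 in 1D5 and 68.2, 74.0 and 75.6 in 1KI9. All GATA1s libraries exceeded FL for both genes, as the ranking required, with FL replicate 1 lowest for each. One of the entries for GGT1, an enzyme that cleaves extracellular glutathione, was at 0.27, 0.90 and 0.50 TPM in FL, 17.7, 18.9 and 15.2 in 1D5 and 21.96, 21.3 and 20.7 in 1KI9. Reads of GGT1 are split between 2 entries in the table, and their sum rose less, from 101.2 ± 14.5 TPM in FL to 141 ± 12.9 in 1D5 and 132 ± 8.10 in 1KI9 (SD, n = 3).

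3 neighbouring glutathione S-transferase genes of the mu class rose together on chromosome 1 (GRCh38). GSTM4 spans 109656081 to 109674836, GSTM2 109668022 to 109709551 and GSTM3, on the opposite strand, 109733932 to 109741038. GSTM3 was at 15.3, 14.8 and 24.7 TPM in FL, 809, 755 and 1024 in 1D5 and 1582, 1369 and 1612 in 1KI9. Its log2 differences were 5.51 and 6.34 (SE 0.17, adjusted p 1.16e-09 and 2e-10), next in size after TMSB4X. GSTM2 was at 0.69, 0.36 and 0.31 TPM in FL, 13.03, 14.7 and 15.7 in 1D5 and 20.9, 13.6 and 22.9 in 1KI9, and GSTM4 at 3.42, 4.23 and 3.54 TPM in FL, 21.2, 23.1 and 18.7 in 1D5 and 23.1, 22.4 and 25.1 in 1KI9. Together the 3 genes went from 22.4 ± 5.27 TPM in FL to 898 ± 141 in 1D5 and 1564 ± 139 in 1KI9 (SD, n = 3). They are close relatives, so the division of reads among them is uncertain, while GSTP1, of the pi class on chromosome 11, fell. GSTP1 was at 725, 1023 and 863 TPM in FL, 572, 612 and 593 in 1D5 and 511, 602 and 631 in 1KI9. Of 21 genes of glutathione transfer and synthesis tested, 6 were higher (28.6%) and 3 lower (14.3%), beside 13.2% and 6.32% over all genes. The higher were the 3 above with GSTK1, MGST3 and GGT1, and the lower GSTP1, GSTA4 and CHAC2. GSTM2 and the GGT1 entry were under 1 TPM in every FL library, so they passed the filter only through GATA1s libraries. GGT1 counts here by that 1 entry, and the sum of its entries rose less.

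The largest falls included HEMGN, from the erythroid marker list, and RHEX, CA8 and HBZ, which are on no list used here. HEMGN, the nuclear protein hemogen, was at 48.7, 28.1 and 25.4 TPM in FL, 7.34, 9.85 and 10.8 in 1D5 and 5.02, 4.67 and 5.19 in 1KI9. FL replicate 1, which held the most globin, was also highest for HEMGN. That all 6 GATA1s libraries were below the lowest FL library was required by the ranking. RHEX, a regulator of erythropoietin receptor signalling, was at 14.6, 44.0 and 31.2 TPM in FL, 2.59, 2.77 and 1.81 in 1D5 and 2.47, 2.04 and 2.28 in 1KI9. Its log2 differences were -3.07 and -3.12 (SE 0.29, adjusted p 1.5e-05 and 3.48e-06). CA8, which encodes a carbonic anhydrase-related protein, was at 69.5, 115 and 76.9 TPM in FL, 21.8, 23.5 and 17.96 in 1D5 and 21.1, 19.2 and 20.4 in 1KI9. HBZ, the embryonic zeta globin, was at 5756, 2304 and 2051 TPM in FL, 61.6, 98.7 and 206 in 1D5 and 31.9, 33.4 and 35.7 in 1KI9. Its FL libraries ranged more than 2-fold, with replicate 1 highest, and lay above every GATA1s library, as the ranking required.

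Other large falls belong to no single group. SLC6A19, a transporter of neutral amino acids, was at 30.0, 23.4 and 21.6 TPM in FL, 7.97, 7.76 and 9.15 in 1D5 and 1.96, 2.53 and 3.36 in 1KI9. TBC1D30, a Rab GTPase-activating protein, was at 8.55, 10.6 and 11.7 TPM in FL, 3.47, 3.55 and 2.23 in 1D5 and 1.11, 1.16 and 0.75 in 1KI9. In both genes 1KI9 was below 1D5, with adjusted p of 5.58e-05 and 0.000557 for the difference. STXBP6, a SNARE-binding protein, was at 12.4, 24.5 and 19.6 TPM in FL, 3.58, 3.23 and 2.33 in 1D5 and 4.34, 6.33 and 5.6 in 1KI9, and here 1D5 was the lower clone. CTSE, the aspartic protease cathepsin E, was at 24.6, 69.1 and 38.0 TPM in FL, 12.7, 11.3 and 3.83 in 1D5 and 9.17, 14.6 and 14.3 in 1KI9, with FL replicates spread from 24.6 to 69.1 TPM. S100P, a small calcium-binding protein, was at 12.6, 20.4 and 15.5 TPM in FL, 3.04, 3.89 and 0.83 in 1D5 and 1.3, 3.36 and 3.51 in 1KI9. HSPA1A, an inducible HSP70, also fell, but its reads cannot be separated from its near copy HSPA1B: their sums were 45.8, 62.6 and 48.5 TPM in FL, 49.0, 49.0 and 48.8 in 1D5 and 42.4, 42.6 and 45.9 in 1KI9. Those sums overlap between FL and each of the clones. The level of TMSB4X in FL (0, 0.13 and 0 TPM) and that of UBE2C, which fell, are uncertain for the same reason, since both have processed copies in the genome.

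The promoters of 3 of these genes are given because each holds a GATA motif and the genes are among the largest changes, GSTM3 upward and HEMGN and RHEX downward. They were picked after the motifs had been searched. Each runs from 250 bases before to 50 after a transcript start in RefSeq (GRCh38.p14), 5′ to 3′ on the gene's strand. Capitals mark AGATAA or TGATAA on either strand. GSTM3 is at chr1:109740989-109741288 (minus strand, AGATAA starting 30 bases before the start), 1 of the HEMGN promoters at chr9:97938123-97938422 (minus strand, TGATAA 155 and AGATAA 114 bases before) and RHEX at chr1:206083345-206083644 (plus strand, AGATAA on the opposite strand 159 bases before).
GSTM3: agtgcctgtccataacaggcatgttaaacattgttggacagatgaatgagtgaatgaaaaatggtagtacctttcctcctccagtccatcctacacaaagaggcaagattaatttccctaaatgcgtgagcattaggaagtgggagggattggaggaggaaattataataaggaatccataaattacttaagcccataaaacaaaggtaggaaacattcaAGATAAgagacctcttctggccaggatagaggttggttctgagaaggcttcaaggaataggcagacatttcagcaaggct
HEMGN: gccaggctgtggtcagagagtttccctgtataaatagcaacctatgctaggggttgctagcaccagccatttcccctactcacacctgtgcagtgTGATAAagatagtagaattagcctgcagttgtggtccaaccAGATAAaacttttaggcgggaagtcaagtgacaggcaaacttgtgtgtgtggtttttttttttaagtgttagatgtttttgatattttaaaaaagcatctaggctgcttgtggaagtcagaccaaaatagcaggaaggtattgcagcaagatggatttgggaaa
RHEX: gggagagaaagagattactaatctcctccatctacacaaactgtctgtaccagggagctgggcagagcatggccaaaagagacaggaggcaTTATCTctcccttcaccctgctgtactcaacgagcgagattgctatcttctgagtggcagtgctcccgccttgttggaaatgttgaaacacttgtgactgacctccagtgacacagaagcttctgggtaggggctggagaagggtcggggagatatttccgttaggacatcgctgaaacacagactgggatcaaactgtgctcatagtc
A match is a description of the letters and not a bound site. Of the 59 genes leading by change, gain, loss, on or off state, opposite signs or as GATA1 itself, 41 were included in a count of hexamers. Each of the 41 had a promoter in the RefSeq table, and 11 held either hexamer in at least 1 promoter. A leading gene outside the 41 may still have a promoter in that table.

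Over the 12231 promoters of 8450 genes tested that the table holds, 8.63% contained AGATAA or TGATAA on either strand. The share was 9.25% among genes called higher in both clones (157 of 1698 promoters) and 11.4% among genes called lower (89 of 782). Among genes at least 2-fold lower it was 17.9%, 19 of 106 promoters from 59 genes, and among genes at least 2-fold higher 11.1%, 34 of 307. CCGGAAG, a motif of ETS factors, was in 19.1% of all promoters, 10.9% of the higher, 16.2% of the lower, 5.21% of the 2-fold higher and 3.77% of the 2-fold lower set. CACGTG, the E-box of MYC and its relatives, was in 9.98%, 8.42%, 12.9%, 6.19% and 5.66% respectively. Promoters of 1 gene can overlap and share a motif, so no test was made and these shares are not read as different.

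Only 9 genes switched between near absence and a clear level in all libraries. The limit was at most 0.5 TPM in every library of 1 side and at least 5 TPM in every library of the other. The 7 that came on (0.0662% of genes tested) included TMSB4X, LAMB3, KIAA1671, CSF1, C11orf96 and ANPEP. LAMB3, a laminin chain, was at 0.19, 0.38 and 0.19 TPM in FL, 6.57, 5.46 and 5.94 in 1D5 and 21.7, 15.6 and 14.2 in 1KI9. ANPEP, the surface aminopeptidase CD13 of myeloid cells, was at 0.15, 0.31 and 0.07 TPM in FL, 6.52, 6.57 and 6.14 in 1D5 and 5.20, 5.28 and 6.31 in 1KI9. Both were near 0 in FL, LAMB3 being higher in 1KI9, while ANPEP did not differ between the clones by the test (adjusted p 0.274). The 2 that went off (0.0189%) were EMC10, a subunit of the ER membrane protein complex, and CLDN11, a tight junction claudin. EMC10 was at 12.4, 16.2 and 13.2 TPM in FL, 0, 0 and 0 in 1D5 and 0, 0 and 0.03 in 1KI9. CLDN11 was at 8.77, 7.28 and 7.20 TPM in FL, 0.14, 0.19 and 0.09 in 1D5 and 0.19, 0.15 and 0.10 in 1KI9. Another 9 subunits of the complex were not called in both clones by limma, and without adjustment 2 of them were higher at p under 0.05. CLDN11 and EMC10 pass the filter through the FL libraries alone, so neither was tested when an FL library was left out.

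The change can also be read as TPM gained or lost. The genes called higher gained 28065 TPM in 1D5 and 50110 in 1KI9, summed over group means, and the genes called lower dropped by 26663 in 1D5 and dropped by 36291 in 1KI9. Among genes whose groups did not overlap, and next to TMSB4X and GSTM3, the largest gains were those of S100A6, TMSB10, GLUL, S100A4, GATA1, HPGD, APOC1 and COX4I1, ranked by the smaller of the clones' gains. The mitochondrially encoded MT-CO2 and MT-CYB were also called higher and gained more than most of these, but an FL library overlapped 1KI9: MT-CO2 was at 15467, 15491 and 18208 TPM in FL, 20661, 19998 and 20514 in 1D5 and 19367, 20176 and 18186 in 1KI9, and MT-CYB at 4169.6, 4570.1 and 5283 TPM in FL, 5765, 5788 and 6594 in 1D5 and 6029, 5683 and 5264 in 1KI9. They stand here outside the naming rule, chosen after their values were seen. TMSB10, a small actin-binding peptide, was at 326, 329 and 383 TPM in FL, 1557, 1367 and 1579 in 1D5 and 2637, 2419 and 2412 in 1KI9. GLUL, glutamine synthetase, was at 675, 875 and 768 TPM in FL, 1305, 1497 and 1536 in 1D5 and 1433, 1533 and 1627 in 1KI9. APOC1, an apolipoprotein, was at 725, 1015 and 899 TPM in FL, 1238, 1252 and 1284 in 1D5 and 1486, 1389 and 1531 in 1KI9. In all 3 the lowest GATA1s library exceeded the highest FL library, as the ranking required. COX4I1, a nuclear-encoded subunit of cytochrome c oxidase, was at 555, 625 and 593 TPM in FL, 840.2, 866 and 794 in 1D5 and 802, 888 and 917 in 1KI9.

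Alpha globin led the losses. HBA1 and HBA2, whose reads cannot be divided with certainty, summed to 37612, 22380 and 22696 TPM in FL, 14011, 14214 and 20738 in 1D5 and 9435, 9799 and 8971 in 1KI9. All GATA1s libraries were below FL, as the ranking required of each gene, and FL replicate 1 was far above the rest. HBA2 lost its call in 1D5 without FL replicate 1, 1D5 replicate 1 or 1D5 replicate 2, and with robust variances or a fit to only the libraries compared. The ribosomal protein genes RPL4, RPL28 and RPL14 were also among the 10 largest losses, each lower by between 0.21 and 0.32 on the log2 scale. RPL4, for example, was at 5368, 4974 and 4798 TPM in FL, 4233, 4398 and 4432 in 1D5 and 4295, 4226 and 4479 in 1KI9. Calls of these 3 did not hold without 1D5 replicate 1 or without 1D5 replicate 3, and the clones did not differ by the test. HNRNPA1, a splicing regulator, was at 2949, 3500.0 and 3170.5 TPM in FL, 2498, 2571 and 2656 in 1D5 and 2501, 2450.3 and 2599 in 1KI9, and its call held in every setting tried.

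**Figure D2:**
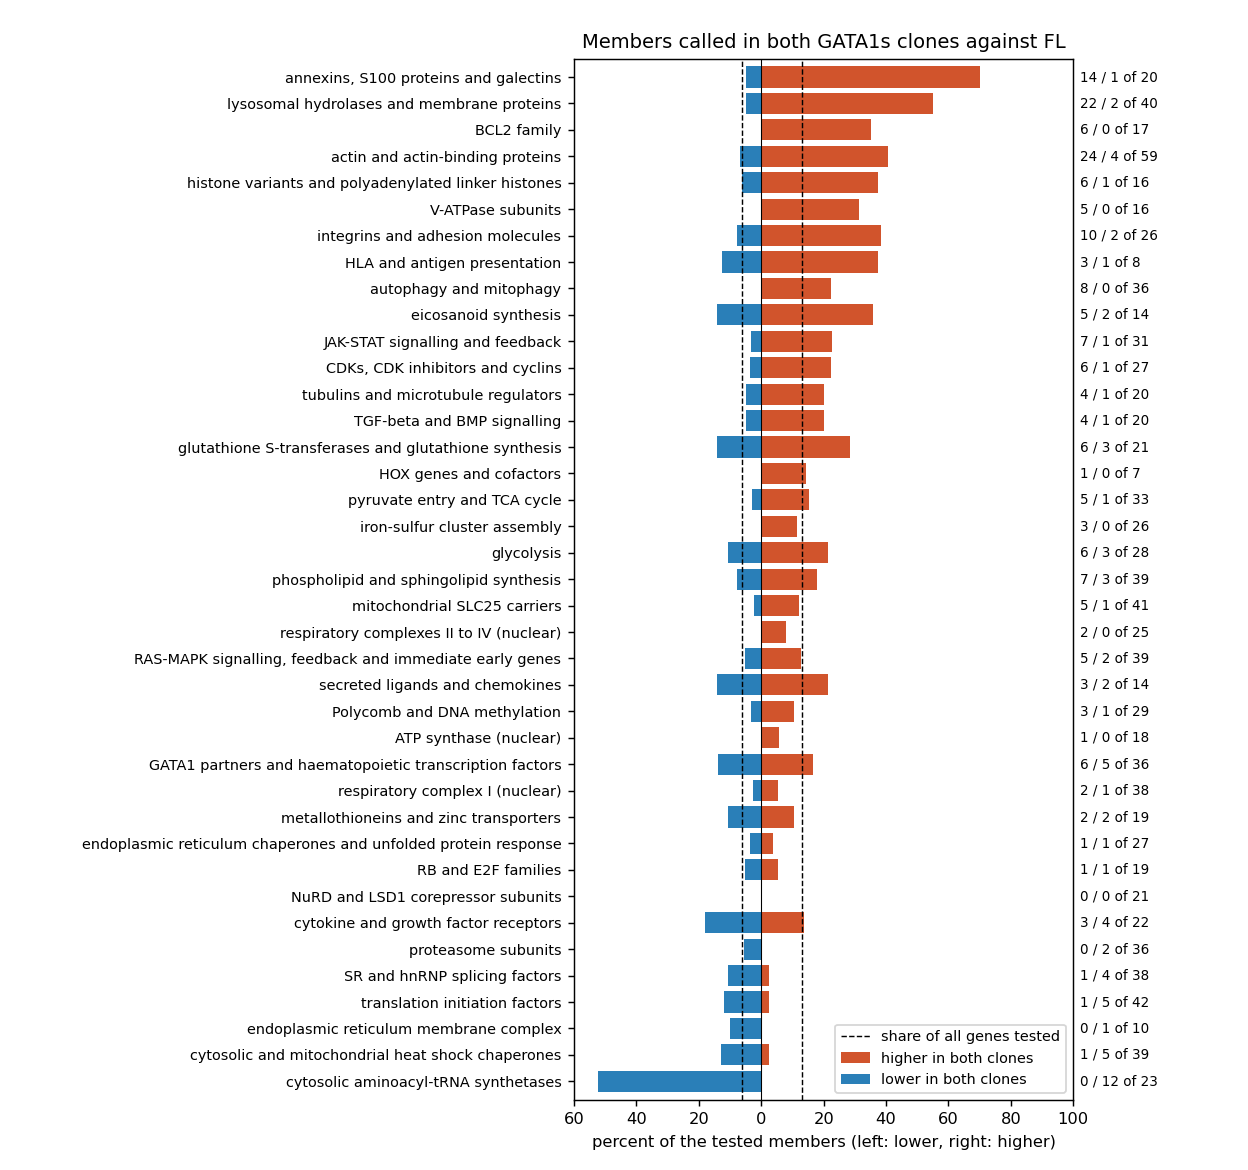
For each of 39 gene lists, the percent of tested members called higher (right) and lower (left) in both clones against FL, with the counts at the right edge. The dashed lines are the shares over all genes tested, 13.2% and 6.32%; annexins, S100 proteins and galectins lead at 14 of 20 higher, and cytosolic aminoacyl-tRNA synthetases stand at the other end with 12 of 23 lower.

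Annexins, S100 proteins and galectins, proteins that bind membranes in response to calcium, bind calcium, or bind sugars, held the highest share of rises. Of 20 tested, 14 were higher in both clones (70%) and 1, S100P, lower (5%), beside 13.2% and 6.32% over all genes. The median log2 differences were 0.82 in 1D5 and 1.68 in 1KI9. Of the 14, 1 was under 1 TPM in every FL library and passed the filter only through GATA1s libraries. S100A4, a regulator of cell movement, was at 97.4, 65.7 and 119 TPM in FL, 603, 639 and 599 in 1D5 and 840.1, 717 and 896 in 1KI9. S100A6 was at 1409, 974 and 1267 TPM in FL, 2730.0, 2364 and 2675 in 1D5 and 3439, 2741 and 3159.7 in 1KI9, which made its gain in TPM the largest by the ranking used above. Both were higher in every GATA1s library than in any FL library, as the ranking of gains required. Galectin LGALS1 was at 36.7, 95.1 and 67.5 TPM in FL, 269.6, 179 and 176 in 1D5 and 704, 583 and 568 in 1KI9, and annexin ANXA1 at 58.2, 141 and 101.1 TPM in FL, 303, 230.3 and 274 in 1D5 and 637, 628 and 562 in 1KI9. For both, FL replicate 1 was lowest and 1KI9 highest. Lesser known members also rose, with log2 differences of 1.80 and 2.40 for LGALS12, 1.16 and 2.04 for ANXA6 and 1.18 and 1.86 for S100A13. S100 genes lie in a cluster on chromosome 1, and of the 9 tested between 151982915 and 153632039, 8 were called higher and none lower, while S100P lies on chromosome 4. Some of these genes overlap, such as S100A1 with S100A13 and S100A3 with S100A4, and whether reads were counted by strand is not stated in the labels or the file. The monocyte markers CD68, TYROBP and AIF1, given above, moved with this group, while LYZ was not called in both clones.

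Actin and its binding proteins shape the cell cortex. Of 59 tested, 24 were higher (40.7%) and 4 lower (6.78%), beside 13.2% and 6.32% over all genes, with medians of 0.25 and 0.62. Of the 24, 4 were under 1 TPM in every FL library, TMSB4X among them, and passed the filter only through GATA1s libraries. LCP1, a plastin of white blood cells that bundles actin, was at 6.2, 9.95 and 9.12 TPM in FL, 100.9, 104 and 95.1 in 1D5 and 240.4, 265 and 278 in 1KI9. CAPG, a capping protein of macrophages, was at 0.62, 1.65 and 1.38 TPM in FL, 4.68, 4.27 and 3.03 in 1D5 and 24.5, 19.7 and 21.8 in 1KI9, GSN, which severs filaments, at 4.96, 11.4 and 6.59 TPM in FL, 20.7, 16.5 and 16.8 in 1D5 and 58.0, 51.3 and 48.2 in 1KI9, and the tropomyosin TPM4 at 20, 33.6 and 29.9 TPM in FL, 64.5, 52.8 and 61.2 in 1D5 and 150.2, 119.8 and 138 in 1KI9. In each, 1KI9 exceeded 1D5 and 1D5 exceeded FL in every library. MYL9, a myosin light chain, had log2 differences of 1.13 and 1.48. The 4 that fell were PLS3, CORO2A, TPM1 and TMOD1. PLS3, the plastin relative of LCP1, was at 2.02, 2.71 and 1.57 TPM in FL, 0, 0.01 and 0 in 1D5 and 0, 0 and 0 in 1KI9, and TPM1, the tropomyosin relative of TPM4, at 6.99, 6.99 and 6.55 TPM in FL, 3.74, 2.86 and 1.76 in 1D5 and 2.86, 2.64 and 2.58 in 1KI9. PLS3 passed the filter only through the FL libraries, and these relatives are set side by side after their values were seen.

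Among integrins and adhesion molecules, 10 of 26 were higher (38.5%) and 2 lower (7.69%), beside 13.2% and 6.32% over all genes (medians 0.27 and 0.93). CD82, a tetraspanin, was at 16.3, 26.3 and 18.9 TPM in FL, 104, 117 and 112 in 1D5 and 119, 105 and 119 in 1KI9. SELPLG, the selectin ligand PSGL-1, was at 10.9, 16.6 and 13.4 TPM in FL, 33.8, 38.4 and 29.6 in 1D5 and 63.9, 66.4 and 70.3 in 1KI9. CD82 did not differ between the clones by the test (log2 0.05, SE 0.14, adjusted p 0.815), while SELPLG was higher in 1KI9 (adjusted p 0.000243). ALCAM and ITGB7 rose by 1.55 and 1.51 and by 1.25 and 1.29. CLDN11 and CD36, a scavenger receptor, were the members that fell. Genes at low level carried part of this count: 5 of the 10 were under 1 TPM in every FL library and passed the filter only through GATA1s libraries, and the count was 6 where 5 TPM was required.

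**Figure D3:**
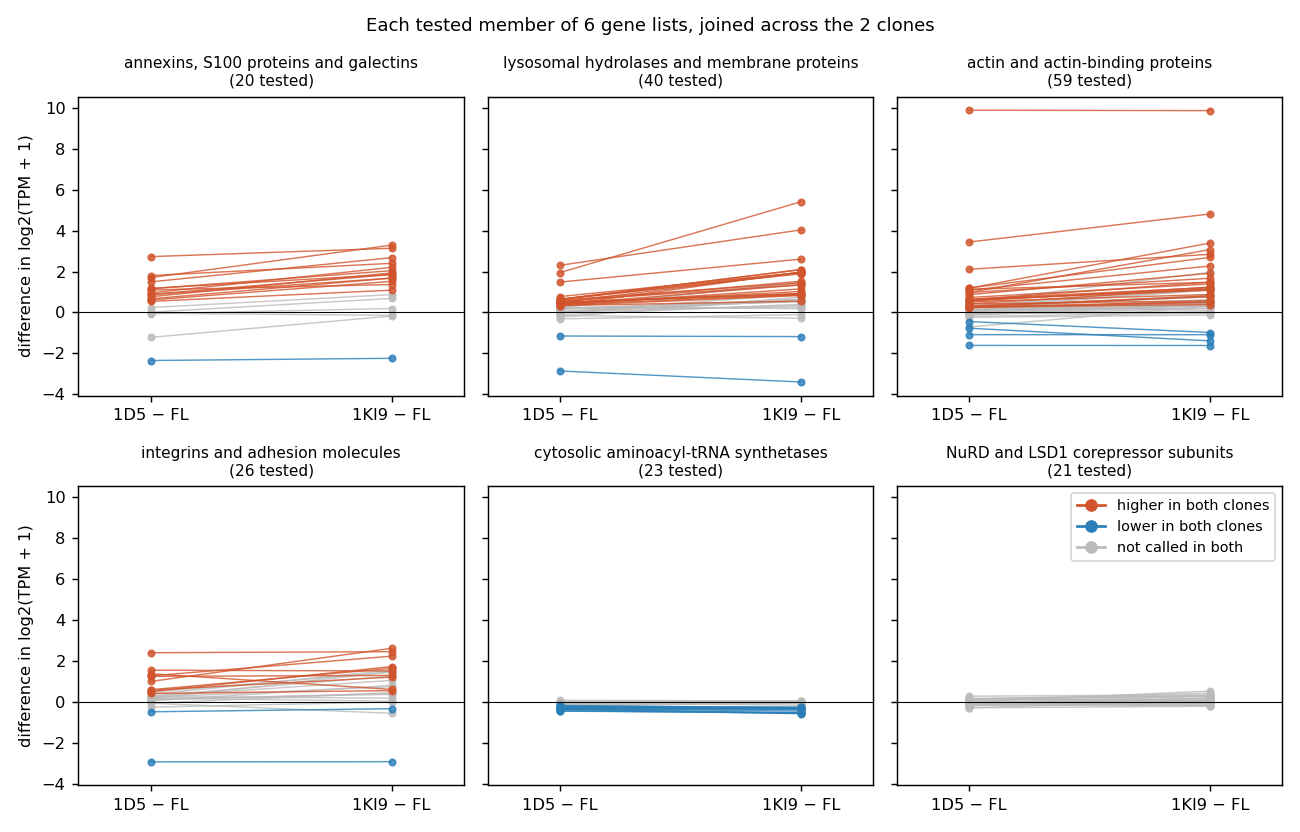
Each line is 1 tested member of a gene list, joining its difference from FL in 1D5 (left) to that in 1KI9 (right) in log2(TPM + 1). Annexins, lysosomal proteins, actin-binding proteins and integrins fan upward in 1KI9, most aminoacyl-tRNA synthetases lie below 0 in both clones, and no corepressor subunit is called in both.

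Lysosomal hydrolases and membrane proteins, which digest material in acidic vesicles, were higher for 22 of 40 (55%) and lower for 2 (5%). Over all genes the shares were 13.2% and 6.32%, and the medians of this list were 0.34 and 0.91. CTSS, cathepsin S, was at 0.59, 1.93 and 2.47 TPM in FL, 13.3, 10.2 and 11.2 in 1D5 and 37.9, 37.3 and 47.2 in 1KI9. ACP5, the tartrate-resistant acid phosphatase of osteoclasts and macrophages, was at 0.05, 1.54 and 0.28 TPM in FL, 8.92, 2.94 and 4.05 in 1D5 and 91.0, 41.2 and 67.4 in 1KI9. LAPTM5, a lysosomal membrane protein of blood cells, was at 44.1, 81.2 and 69.3 TPM in FL, 206, 172 and 159.9 in 1D5 and 403, 389 and 374 in 1KI9. All 3 rose in both clones and were higher in 1KI9 than in 1D5. The 2 that fell were GLMP, a glycosylated lysosomal membrane protein, at 15.7, 15.9 and 13.8 TPM in FL, 1.07, 1.15 and 1.44 in 1D5 and 0.36, 0.61 and 0.62 in 1KI9, and LIPA, the acid lipase, at 1.18, 1.52 and 1.16 TPM in FL, 0, 0.07 and 0.01 in 1D5 and 0, 0.01 and 0.01 in 1KI9. LIPA passed the filter only through FL. Subunits of the V-ATPase, the pump that acidifies lysosomes, were higher for 5 of 16 (31.2%) and lower for none, ATP6AP1 by 0.40 in 1D5 and 1.27 in 1KI9. That count was 3 without 1D5 replicate 1. Autophagy genes were higher for 8 of 36 (22.2%, beside 13.2% over all genes) and lower for none. GABARAP, which joins autophagosomes to cargo, was at 181, 199.7 and 176 TPM in FL, 249.7, 263 and 250.2 in 1D5 and 397, 372 and 399.8 in 1KI9, and BNIP3L, the receptor for removing mitochondria in red cell maturation, at 120.0, 125 and 111 TPM in FL, 169.6, 172 and 177 in 1D5 and 301, 276 and 309 in 1KI9. Both were graded, with 1KI9 above 1D5 (adjusted p 5.27e-05 and 1.32e-05). The monocyte markers CD68, TYROBP and AIF1 rose with these groups, while LYZ was not called in both clones.

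In cytokine signalling, ligands and receptors held calls in both directions. Of 14 ligands tested, 3 were higher (21.4%), CSF1, AREG and GRN, and 2 lower (14.3%), beside 13.2% and 6.32% over all genes. CSF1 was under 1 TPM in every FL library and passed the filter only through GATA1s libraries. GRN, progranulin, was at 31.9, 58.9 and 29.9 TPM in FL, 78.5, 64.4 and 67.6 in 1D5 and 231, 196 and 213 in 1KI9. ERFE, the erythroid hormone that lowers hepcidin, was at 14.7, 4.01 and 4.54 TPM in FL, 0.86, 1.00 and 0.93 in 1D5 and 0.35, 0.29 and 0.30 in 1KI9. FL replicate 1 was the high library for ERFE, and all GATA1s libraries were at or below 1 TPM. VEGFA, an angiogenic factor, was the other to fall. Of 22 receptors, 3 were higher (13.6%, near the 13.2% of all genes) and 4 lower (18.2%). TNFRSF1A, the main receptor for TNF, was at 10.2, 15.2 and 15.1 TPM in FL, 24.3, 21.1 and 27.3 in 1D5 and 49.4, 43.1 and 44.1 in 1KI9, whereas TNFRSF1B, the second TNF receptor, was at 1.88, 4.45 and 3.28 TPM in FL, 0.61, 0.63 and 0.49 in 1D5 and 0.23, 0.47 and 0.64 in 1KI9. IL9R, the interleukin 9 receptor, was at 1.6, 3.95 and 2.49 TPM in FL, 0.12, 0.27 and 0.10 in 1D5 and 0.13, 0.13 and 0.14 in 1KI9. TNFRSF1B and IL9R were under 1 TPM in every GATA1s library, so they passed the filter only through FL and could be called in no direction but lower. IFNGR1 (higher), INSR and LEPR (lower) complete the receptor calls with CSF2RB. The count of lower receptors was 2 whenever any FL library was left out.

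Inside the cell, 7 of 31 JAK-STAT genes were higher (22.6%) and 1 lower (3.23%), beside 13.2% and 6.32% over all genes (medians 0.08 and 0.41). SOCS1, a feedback inhibitor of JAKs, was at 1.87, 2.16 and 1.57 TPM in FL, 7.60, 6.96 and 9.68 in 1D5 and 13, 12.7 and 12.3 in 1KI9. PTPN6, the phosphatase SHP-1 that dampens cytokine receptors, was at 0.24, 0.39 and 0.52 TPM in FL, 2.61, 3.18 and 2.38 in 1D5 and 18.1, 16.2 and 19.2 in 1KI9. Both were low in FL and rose in each clone, and PTPN6 was higher again in 1KI9 (log2 2.34 against 1D5, adjusted p 1.88e-07). The kinase JAK1 rose by 0.54 and 1.24 on the log2 scale. PIM1, a survival kinase induced by STAT5, was the member that fell, at 99.8, 85.5 and 89.6 TPM in FL, 51.9, 82.1 and 59.0 in 1D5 and 45.3, 46.5 and 55.2 in 1KI9. Among the JAK-STAT genes the higher count was 4 without 1D5 replicate 1, and PIM1 lost its call without FL replicate 1 or 3 or without 1D5 replicate 1 or 3. Of 39 RAS-MAPK and immediate early genes 5 were higher and 2 lower, shares close to those over all genes. The higher count was 9 without FL replicate 2, 3 without FL replicate 3 and 13 in the fit to 18 libraries. ETV4, an ETS factor, was at 0.51, 1.51 and 1.03 TPM in FL, 7.54, 4.43 and 7.79 in 1D5 and 16.4, 18.5 and 18.4 in 1KI9. ATF3, a stress-induced factor, was at 3.71, 1.82 and 2.91 TPM in FL, 1.14, 0.95 and 1.02 in 1D5 and 1.00, 1.25 and 0.83 in 1KI9. SPRY2 and PHLDA1 also rose and DUSP4 fell. The phosphatase DUSP5 and the early gene IER3 rose by 0.68 and 2.27 and 0.67 and 2.26, the call of IER3 being lost without FL replicate 3.

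Among cyclin-dependent kinases, their inhibitors and cyclins, 6 of 27 were higher (22.2%) and 1 lower (3.7%), beside 13.2% and 6.32% over all genes. The medians were -0.07 and -0.15, and in 1KI9 alone 9 members were called higher and 10 lower. Of the 6 higher in both clones, 4 encode inhibitors of these kinases, which the list holds by choice. CDKN1C, the inhibitor p57, was at 0.86, 0.71 and 0.40 TPM in FL, 33.7, 62.9 and 41.1 in 1D5 and 20.1, 27.3 and 19.8 in 1KI9. CDKN1A, p21, was at 57.7, 60.2 and 38.5 TPM in FL, 131, 72.6 and 95.3 in 1D5 and 356, 299 and 287 in 1KI9. CDKN1C was higher in 1D5 than in 1KI9, and CDKN1A the reverse, each with a difference that passed the test (adjusted p 0.00354 and 9.78e-05). CDKN2C and CDKN2D, inhibitors of CDK4 and CDK6, rose by 0.64 and 0.72 and by 0.60 and 0.50. PKMYT1, an inhibitory kinase of CDK1, was the member called lower. Under median-of-ratios scaling 7 members of this list were lower, as were 7 without FL replicate 1. In the BCL2 family 6 of 17 were higher (35.3%) and none lower. BIK, BAD and BBC3, which promote cell death, rose by 0.67 and 0.68, 0.58 and 0.70 and 0.48 and 1.14. The family count was 3 without 1D5 replicate 1, and BBC3 lost its call without FL replicate 3 or without 1D5 replicate 1 or 2.

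The list of GATA1 partners and other haematopoietic transcription factors held calls in both directions. Of 36 tested, 6 were higher (16.7%), GATA1 itself among them, and 5 lower (13.9%), with medians of -0.09 and -0.07. CEBPA, a factor of granulocyte and monocyte fate, was at 0.74, 1.99 and 1.59 TPM in FL, 7.08, 8.54 and 4.66 in 1D5 and 5.08, 7.57 and 6.46 in 1KI9. SPI1, the myeloid factor PU.1 that opposes GATA1, was at 6.47, 12.9 and 10.5 TPM in FL, 18.9, 17.8 and 15.1 in 1D5 and 31.2, 36.3 and 37.4 in 1KI9. CEBPA did not differ between the clones by the test (adjusted p 0.876), while SPI1 was higher in 1KI9 (adjusted p 0.00183). KLF10 rose by 0.67 and 0.92. The members that fell were ZFPM1, CEBPB, CEBPG, MYC and IRF1. ZFPM1, also called FOG1, the cofactor bound by the GATA1 zinc finger, was at 8.58, 9.71 and 6.47 TPM in FL, 6.15, 5.13 and 4.09 in 1D5 and 5.35, 4.58 and 5.41 in 1KI9. Its highest GATA1s library was just below its lowest FL library. The count of lower members ranged from 1 without 1D5 replicate 3 to 8 without FL replicate 1. Of the NuRD and LSD1 corepressor subunits that GATA1 recruits, none of 21 was called in both clones, with 7 called higher in 1KI9 alone. By limma without adjustment, 1 of the 21 was higher and 0 were lower at p under 0.05 in both clones. Polycomb and DNA methylation genes gave 3 higher of 29 (10.3%), among them PHC1 and DNMT3B, and PCGF5 lower (3.45%). Both shares were below the 13.2% and 6.32% over all genes. PHC1, a polycomb subunit, was at 2.56, 2.10 and 1.64 TPM in FL, 6.16, 7.07 and 5.33 in 1D5 and 9.98, 8.61 and 12.4 in 1KI9.

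Histone genes were read through their polyadenylated transcripts. Of 16 tested, 6 were higher (37.5%) and 1, H1FX, lower (6.25%), beside 13.2% and 6.32% over all genes (medians 0.26 and 0.30). HIST1H4H was at 7.18, 10.6 and 5.09 TPM in FL, 63.3, 35.9 and 61.2 in 1D5 and 171, 136 and 147 in 1KI9, and HIST1H2AC at 4.25, 4.35 and 2.81 TPM in FL, 12.4, 10.7 and 11.4 in 1D5 and 23.6, 21.5 and 20.6 in 1KI9. For both, the 3 groups were fully separated, with FL lowest and 1KI9 highest. HIST1H2BD, HIST1H2BK and HIST2H2AA4 rose by 1.17 and 1.80, 1.01 and 1.66 and 1.03 and 1.35. Replication-dependent histone messages usually lack a poly(A) tail, so these levels count only the tailed fraction. Histone genes are near copies of each other, and the division of reads among them is uncertain.

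Metabolic lists differed in their share of calls. Of 28 glycolysis genes 6 were higher (21.4%) and 3 lower (10.7%), beside 13.2% and 6.32% over all genes, with medians of 0.01 and 0.02. PKM, pyruvate kinase M, was at 123.1, 337 and 243 TPM in FL, 498, 425 and 362 in 1D5 and 900.0, 872 and 850.2 in 1KI9, with FL replicate 1 lowest. ENO2, a neuronal-type enolase, was at 1.78, 1.58 and 1.26 TPM in FL, 3.33, 2.81 and 5.28 in 1D5 and 9.83, 8.71 and 14.6 in 1KI9. ENO2 kept its call in every setting tried, while PKM lost it without 1D5 replicate 1 or 2. SLC2A1, HK1 and PFKFB3 were the members lower. Without 1D5 replicate 1 the count of higher glycolysis genes was 2. The lists that follow in this paragraph held shares near or below those over all genes. Around pyruvate entry and the TCA cycle 5 of 33 were higher (MPC2, PDK1, PDK3, IDH2 and MDH1) and GOT1 lower, with 3 higher without FL replicate 1 or 1D5 replicate 2. IDH2, the mitochondrial isocitrate dehydrogenase, was at 15.6, 12.6 and 12.6 TPM in FL, 30.3, 38.6 and 30.7 in 1D5 and 52.9, 42.8 and 51.1 in 1KI9, and PDK1, the kinase that closes pyruvate dehydrogenase, at 7.13, 7.27 and 7.93 TPM in FL, 12.4, 12.5 and 15.2 in 1D5 and 25.7, 21.7 and 24.0 in 1KI9. Of 38 nuclear subunits of respiratory complex I, NDUFA5 and NDUFB5 were higher and NDUFA9 lower, and of 25 subunits of complexes II to IV, COX4I1 and COX7A2 were higher. ATP5MPL was the 1 of 18 ATP synthase genes called. Of these only COX4I1 kept its call whichever library was left out. Among 41 mitochondrial carriers 5 were higher (12.2%; SLC25A23, SLC25A24, SLC25A29, SLC25A30 and SLC25A35) and SLC25A25 lower (2.44%). SLC25A23, a calcium-regulated ATP-Mg carrier, was at 8.85, 12.2 and 8.57 TPM in FL, 25.2, 25.6 and 21.5 in 1D5 and 25.9, 28.4 and 29.5 in 1KI9.

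Eicosanoid enzymes, which make and break lipid mediators, changed in 7 of 14 tested, 5 higher (35.7%) and 2 lower (14.3%). Over all genes the shares were 13.2% and 6.32%. The list medians were -0.05 and 0.08, beside 0.00 and 0.12 over all genes. Of the 5 higher, 2 were under 1 TPM in every FL library and passed the filter only through GATA1s libraries. PTGS1, the constitutive cyclooxygenase of platelets, was at 0.23, 0.54 and 0.18 TPM in FL, 6.46, 4.15 and 3.63 in 1D5 and 40.8, 30.1 and 21.2 in 1KI9. HPGD, which inactivates prostaglandins, was at 44.7, 115 and 81.4 TPM in FL, 515, 371 and 507 in 1D5 and 669.7, 559 and 689 in 1KI9. ALOX5, the first enzyme of leukotriene synthesis, was at 6.49, 10.9 and 5.55 TPM in FL, 18.7, 23.2 and 13.9 in 1D5 and 29.4, 26.0 and 30.8 in 1KI9, and the thromboxane synthase TBXAS1 at 0, 0.26 and 0.08 TPM in FL, 1.68, 0.99 and 1.51 in 1D5 and 3.80, 4.70 and 4.47 in 1KI9. All 4 exceeded FL in each GATA1s library, which for HPGD the ranking of gains required. PLA2G15 (higher), PLA2G6 and ALOX12 (lower) were the other calls, and 4 were lower without FL replicate 1. The megakaryocyte and monocyte markers called higher, given above, moved with this group. In antigen presentation HLA-E, B2M and MICA of 8 rose (37.5%) and TAP2 fell (12.5%), beside the same shares over all genes. HLA-E, a ligand of natural killer cell receptors, was at 5.40, 6.31 and 4.87 TPM in FL, 11.9, 8.97 and 9.17 in 1D5 and 38.8, 32.2 and 34.7 in 1KI9, B2M, the light chain of HLA class I, at 244, 345 and 330.0 TPM in FL, 485, 479 and 433 in 1D5 and 751, 710.1 and 776 in 1KI9, and the peptide transporter TAP2 at 4.71, 5.87 and 6.35 TPM in FL, 2.20, 3.70 and 1.48 in 1D5 and 3.13, 2.30 and 2.38 in 1KI9.

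Lists of tRNA synthetases and initiation factors, which serve protein synthesis, each held more falls than rises. Of 23 cytosolic aminoacyl-tRNA synthetases, which charge tRNAs, 12 were lower (52.2%) and none higher, with medians of -0.21 and -0.33. GARS, the glycyl-tRNA synthetase, was at 221, 209 and 225 TPM in FL, 169, 146 and 162 in 1D5 and 149, 150.3 and 152 in 1KI9. YARS was at 168, 167 and 175 TPM in FL, 129.9, 122 and 125 in 1D5 and 107, 119 and 121 in 1KI9, and MARS at 262, 241 and 266 TPM in FL, 201, 189 and 208 in 1D5 and 155, 185 and 174 in 1KI9. Changes were small, from 0.18 to 0.46 on the log2 scale in 1D5 and 0.26 to 0.58 in 1KI9 among the members called, but in these 3 the groups did not overlap. The count was 6 without FL replicate 3 and 7 without 1D5 replicate 2, and AARS, which fell by 0.36 and 0.54, lost its call without FL replicate 3. Of 42 initiation factors 1 was higher (2.38%) and 5 lower (11.9%). The higher was EIF3A, at 120.2, 120.3 and 122 TPM in FL, 164, 156 and 163 in 1D5 and 152, 169.6 and 175 in 1KI9. EIF1AX, EIF2S1, EIF3I, EIF3J and EIF5 were lower, a count of 11 under median-of-ratios scaling and of 2 without FL replicate 3. Among 39 heat shock chaperones 5 were lower (12.8%; HSPA1A, TRAP1, DNAJC2, FKBP4 and TCP1) and 1 higher (2.56%), HSPB1 at 295, 389 and 345 TPM in FL, 589, 594 and 516 in 1D5 and 619, 706 and 632 in 1KI9. Among 38 SR and hnRNP splicing factors HNRNPA1, HNRNPAB, HNRNPH3 and HNRNPU were lower (10.5%) and HNRNPLL higher (2.63%). Over all genes the shares were 6.32% lower and 13.2% higher. Without FL replicate 1, 14 chaperones and 15 splicing factors were lower, and without FL replicate 2 these counts were 1 and 2. Of 36 proteasome subunits, PSMD1 and PSME3 were lower.

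The clones were also compared with each other. 3321 genes (31.4% of those tested) differed between 1KI9 and 1D5, 2852 higher (27%) and 469 lower (4.44%) in 1KI9. Without 1KI9 replicate 3 the number was 2124. Among the 2062 genes called in both clones, 976 (9.23% of those tested) also differed between the clones, 935 of them (8.84%) farther from FL in 1KI9 and 41 (0.388%) farther in 1D5. Under median-of-ratios scaling they numbered 1192 and 56. The other 1086 did not differ by the test, which does not show that they were equal. Members named above follow both patterns: PTPN6, CTSS and HIST1H4H stood farther from FL in 1KI9, and CD82, ANPEP and TPM1 did not differ by the test.

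In 27 genes (0.255%) the clones were called in opposite directions. Of these 24 (0.227%) were higher in 1KI9 and lower in 1D5 than FL, and 3 (0.0284%) the reverse. RNF182, a ubiquitin ligase, was at 4.04, 3.55 and 3.59 TPM in FL, 0.26, 0.32 and 0.26 in 1D5 and 19.0, 17.6 and 17.6 in 1KI9. PDLIM1, a LIM-domain protein of the actin cytoskeleton, was at 7.80, 12.8 and 11.2 TPM in FL, 2.65, 1.6 and 1.13 in 1D5 and 25.4, 24.6 and 26.3 in 1KI9. DMD, dystrophin, was at 0.69, 1.45 and 0.72 TPM in FL, 0.02, 0.05 and 0.06 in 1D5 and 2.44, 3.39 and 2.15 in 1KI9. In each, 1D5 lay below FL and 1KI9 above it with no overlap. PICK1, a protein that holds receptors at membranes, was at 2.10, 2.51 and 1.96 TPM in FL, 4.35, 5.28 and 4.08 in 1D5 and 1.23, 0.54 and 0.65 in 1KI9, and RAP1GAP2, which switches off RAP1, at 0.45, 0.33 and 0.63 TPM in FL, 2.30, 2.08 and 2.66 in 1D5 and 0.01, 0.08 and 0.11 in 1KI9, both with 1D5 highest. C19orf57, FILIP1L and MICAL2 followed, and those 3 lost the opposite call when 1 library or another was left out. For MICAL2 these were FL replicate 2 and 1D5 replicates 2 and 3. For FILIP1L they were FL replicates 1 and 3, 1D5 replicates 2 and 3 and 1KI9 replicate 1. C19orf57 lost it without any FL library, 1D5 replicate 2 or any 1KI9 library, and, like RAP1GAP2, with a pseudocount of 5.

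**Figure D4:**
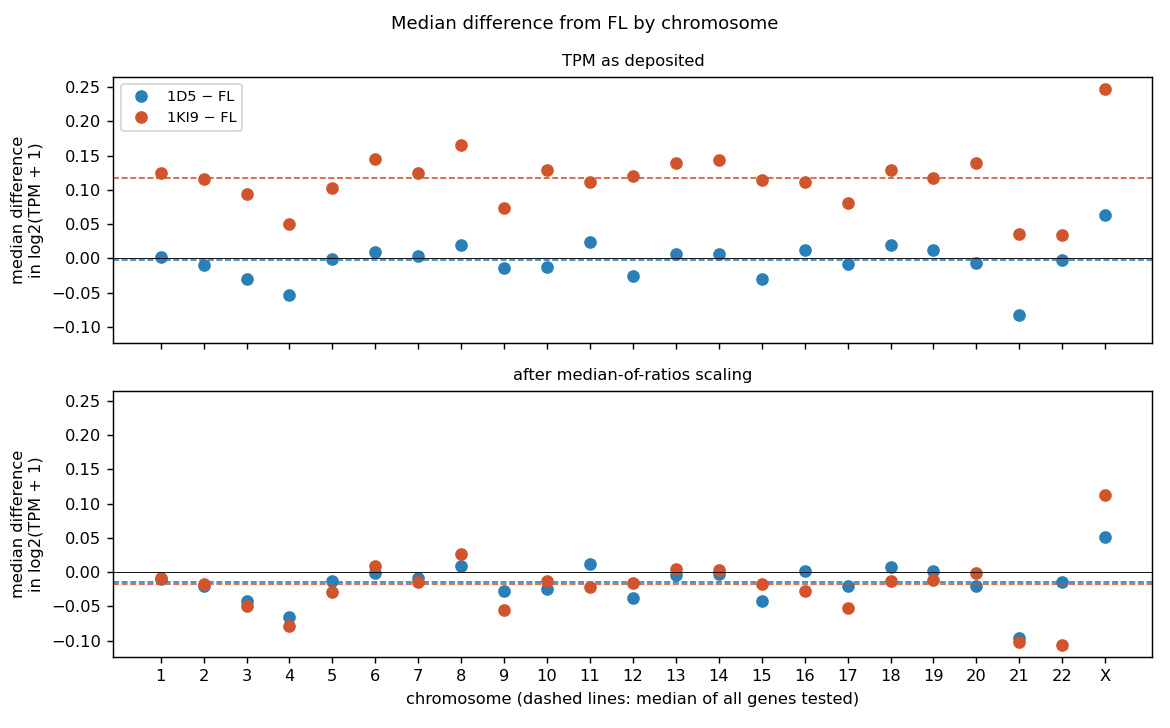
Median difference from FL of all genes tested on each chromosome, in log2(TPM + 1), for 1D5 and 1KI9, with TPM as deposited (top) and after median-of-ratios scaling (bottom); dashed lines are the medians of all genes. The X chromosome lies highest in both clones and under both scalings, and chromosome 21 lies low.

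Calls were spread over all chromosomes, with the X chromosome highest. Of its 360 genes tested, 73 (20.3%) were higher and 15 (4.17%) lower in both clones, beside 13.2% and 6.32% over all genes. The median difference of X genes was 0.06 in 1D5 and 0.25 in 1KI9, and 0.05 and 0.11 after median-of-ratios scaling. Above the median of all genes, the 1KI9 value was 0.13 as deposited and under that scaling. The X genes at least 2-fold higher numbered 15, and 2 were at least 2-fold lower. The excess of X over all genes in 1KI9 fell to 0.08 with a pseudocount of 5 and was 0.11 without FL replicate 3. Chromosome 21 had a median of -0.08 in 1D5 and 0.04 in 1KI9, and -0.10 in both clones after scaling. Chromosome 4 was the only one with more genes lower than higher, 37 (10.9%) against 26 (7.62%) of 341. Chromosome 22 was at 0.00 in 1D5 and 0.03 in 1KI9, and at -0.11 in 1KI9 after scaling. The copy number of these chromosomes in the 3 clones was not analysed here, and no test was made over chromosomes.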

How the data were processed

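RNA was sequenced from 9 expansion libraries of HUDEP1 cells, 3 of FL, 3 of 1D5 and 3 of 1KI9, grouped by their labels. The authors deposited 1 table of 13358 genes. Trim Galore 0.60, STAR 2.7, RSEM 1.31 and the build hg38 (GRCh38.p12) are named per the submitters' processing notes. The authors' expansion values are in TPM. The deposited day-4 values are a signal scaled in a way that no label or header states. The design had assumed TPM there too, and they enter only an alternative fit to all 18 libraries. TPM keeps no depth, so no counting interval or detection limit is given, and a value of 0 means only that the gene is listed at 0.

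TPM is a share of the library, so a gain in abundant genes lowers the others. RSEM divides reads among near copies, which makes TMSB4X, UBE2C, HSPA1A, HNRNPA1, the globins, the GSTM genes, histones and GGT1 uncertain. Whether reads were counted by strand is not stated there. Identifiers of 13328 genes were matched to GENCODE release 29, which gave the names and positions.

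From the deposited TPM, log2(TPM + 1) was computed, which understates changes of low genes. The 10572 genes with at least 1 TPM in at least 3 of the 9 libraries were fitted with limma 3.58.1 (R 4.3.3, mean-variance trend, 1 mean per group), with Benjamini-Hochberg adjustment over all genes tested and a threshold of 0.05. Tests are two-sided. On simulated data for the calls in both clones (10355 genes), shifts of 0.5, 1.0 and 2.0 on the log2 scale were called with the right sign in 31 of 64, 59 of 63 and 65 of 65 genes, with 1 false call. Few genes were shifted there, equally in every GATA1s library, with independent normal noise and no difference between the clones. The real libraries held far more calls and differences between the clones, so these rates do not carry over to the calls reported here. Principal components, sums and promoter motifs were computed with numpy 2.4.6 and pandas 2.3.3, and plots with matplotlib 3.10.9.

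The comparison, the 40 pathway lists and the 8 marker lists were chosen with earlier results of these data known, so lists are described by counts and medians without a test of the list. Genes named are the 15 largest rises and falls called in both clones with no overlap and a group mean of at least 10 TPM, the 10 largest gains and losses in TPM, the on and off genes, up to 4 leading members of each list with members past 2-fold in both clones, and up to 5 genes of opposite sign in each direction. Erythroid markers, and members of lists with 5 or fewer calls in a direction that this rule leaves out, were named after their values were seen. A few genes and 1 list are not reported here. Alternatives were 18 or 6 libraries in the fit, pseudocounts of 0.1 and 5, no filter or 5 TPM, median-of-ratios scaling, the replicate number as a block, robust variances and each library left out. Same-numbered libraries had correlations of deviations between -0.11 and 0.154, so the numbers were not treated as pairing the libraries.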

Additional observations from a re-analysis of the deposited data

Results flagged for a closer look

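The clones differed from each other, by limma's adjusted p for 1KI9 minus 1D5, in 32 of the 59 genes that lead by size of change, gain, loss, on or off state, opposite signs or as GATA1 itself. Over all genes tested the share that differed was 31.4%. Of the 32, 8 were chosen for opposite signs against FL, so for them a difference between the clones follows from the choice. Of the 32, 30 are given here. List members outside these 59 were not screened this way. Values are log2 differences, 1KI9 minus 1D5, and the adjusted p values ran from 4.22e-10 to 0.0306.

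Among genes above FL in both clones, 1KI9 was the farther from FL for LCP1 (1.37), LAMB3 (1.36), HEPH (1.11), TMEM173 (0.94), CSF2RB (0.89), GSTM3 (0.83), AREG (0.83), TMSB10 (0.73), FXYD5 (0.68), CSF1 (0.63), KIAA1671 (0.50) and C11orf96 (0.38). 1D5 was the farther for CDKN1C (-0.97).

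Among genes below FL in both clones, 1KI9 was the farther for HBZ (-1.65), SLC6A19 (-1.38), CDC42EP1 (-1.26), TBC1D30 (-1.01), HBA2 (-0.83), HEMGN (-0.78), HBA1 (-0.72) and GLMP (-0.54). STXBP6 (0.67) was the exception, being lower in 1D5.

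In genes with opposite signs against FL, 1KI9 was the higher clone for RNF182 (3.90), PDLIM1 (3.28), MICAL2 (2.28), DMD (1.80) and FILIP1L (1.78), and 1D5 for RAP1GAP2 (-1.65), PICK1 (-1.64) and C19orf57 (-0.75). Each group has 3 libraries, too few for a check of single outlying libraries.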

How the results depend on the processing

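The total called in both clones, 2062, lay between 1411 and 2084 when 1 library was left out. The higher count, 1394, lay between 967 and 1437 and the lower count, 668, between 359 and 871. Median-of-ratios scaling gave 1179 lower. It moved the share of higher calls from 67.6% to 54.9%. The 258 genes at least 2-fold higher became 497 with a pseudocount of 0.1 and 88 with 5, and the 73 lower became 24 with a pseudocount of 5 and 31 with a filter at 5 TPM. With 1 library left out the 2-fold counts ran from 238 to 308 and from 36 to 74. The count of 1KI9 against 1D5, 3321, ran from 2124 to 3744. The X excess in 1KI9, 0.129, was 0.152 with a pseudocount of 0.1 and 0.075 with 5, and 0.106 to 0.129 with 1 library left out. With the replicate number as a block, 1990 genes were called in both clones (1372 higher, 618 lower), 2290 in 1D5, 5515 in 1KI9 and 3256 between the clones. The block ended, among others, the calls of RPL4, TUBB1, DNAJC2, NDUFA9 and SLC30A9. Of 200 named genes 158 kept their call in every setting in which they were tested, and no sign reversed. Counts of list members moved by over 1.5 times in 220 list and setting pairs and by less in 1220. The causes were not tested, except that genes low in GATA1s cannot pass the filter when an FL library is left out. Depth is unknown, and 1 FL clone limits every comparison.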

Other observations

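The other lists are given beside the shares over all genes tested, 13.2% higher and 6.32% lower. Of 39 genes of phospholipid and sphingolipid synthesis, 7 were higher (17.9%) and 3 lower (7.69%; PISD, UGCG and SPHK1), with the higher count 2 without FL replicate 3. Tubulins and their regulators gave TUBB1, TUBB2A, TUBB2B and TUBB3 higher and TUBG1 lower of 20. TUBB3, a tubulin of neurons, was at 1.14, 2.66 and 1.68 TPM in FL, 5.96, 4.06 and 4.94 in 1D5 and 7.93, 8.46 and 10.2 in 1KI9. In TGF-beta and BMP signalling, SMAD3, LTBP3, LTBP4 and ACVR1 were higher and ID2 lower of 20. LTBP4, a matrix protein that binds latent TGF-beta, was at 25.9, 29.4 and 20.6 TPM in FL, 36.7, 42.1 and 37.2 in 1D5 and 63.1, 57.1 and 61.4 in 1KI9. Neither gene's groups overlapped. Iron-sulfur cluster assembly gave FDX1, FDXR and CIAO2B higher of 26, of which FDX1 and CIAO2B lost their call without FL replicate 2 or 1D5 replicate 1.

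Zinc transporters and metallothioneins gave SLC30A9 and SLC39A13 higher and SLC30A10 and SLC39A6 lower of 19. SLC30A10, known as a manganese exporter, was at 5.55, 2.77 and 1.04 TPM in FL, 0.20, 0.15 and 0.44 in 1D5 and 0.06, 0.01 and 0.03 in 1KI9, and passed the filter only through FL. RB and E2F genes gave TFDP2 higher and TFDP1 lower of 19, HOX genes and cofactors PBX2 higher of 7, and ER chaperones and the unfolded protein response DNAJB9 higher and HERPUD1 lower of 27.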
